A study of Homo sapiens with 12 samples.

Results

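Transcripts of 42 genes were followed that belong to the amino acid stress response of the transcription factor ATF4: ATF4 and its partners, enzymes that make amino acids, amino acid transporters, and the cytosolic tRNA synthetases with the tRNA exporter XPOT. The genes were listed by what they do, with earlier results of these data known, and the list itself uses no measured value. Of the 42, 40 were measured by at least 1 probe set annotated to that gene alone, out of 11963 genes on the array. MARS1 and QARS1, the synthetases for methionine and glutamine, had only probe sets that also name a microRNA gene and were not analysed here. Where a gene had several probe sets, the one with the highest mean over the 12 arrays was used.

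The arrays came from 2 human acute myeloid leukaemia cell lines grown in culture. MV4-11 is a myelomonocytic line that carries a fusion of the MLL gene and a FLT3 mutation, and U937 is a monocytic line. The 4 groups, with 3 arrays each, were MV4-11 with CHD4 shRNA, MV4-11 with scrambled shRNA, U937 with CHD4 shRNA and U937 with scrambled shRNA. CHD4 supplies the ATPase activity of the NuRD chromatin remodelling complex, and the series description asks what its loss does to the transcriptome. All 4 groups carried a lentiviral pRRL.H1 vector with GFP, controls included. The sources used here do not give the number of hairpins, the time after transduction, or whether cells were sorted or cloned. The sample titles spell the target CDH4. The CHD4 transcript had log2 values of 8.79, 8.85 and 8.39 with CHD4 shRNA, against 10.65, 10.69 and 10.68 with scrambled shRNA, in MV4-11, a change of -2.0 (SE 0.14, limma adjusted p = 1.35e-05). In U937 the values were 8.23, 8.13 and 8.45 with CHD4 shRNA, against 10.31, 10.38 and 10.71 with scrambled shRNA, a change of -2.20 (SE 0.14, limma adjusted p = 8.78e-06). Of 10 myeloid markers 9 were measured. Their mean log2 level per array was 8.07 to 8.35 with CHD4 shRNA, against 7.85 to 7.97 with scrambled shRNA, in MV4-11, and 8.35 to 8.40 with CHD4 shRNA, against 8.10 to 8.26 with scrambled shRNA, in U937. Of the 9 only ITGAM, the integrin CD11b, passed the threshold, with log2 changes of 1.41 in MV4-11 (limma adjusted p = 0.0020) and 0.66 in U937 (limma adjusted p = 0.084, not past it). These levels differed in the same comparisons as the results that follow, and their part in them was not tested. Lists of T cell, B cell, erythroid, epithelial and fibroblast markers had mean levels between 4.76 and 6.66 in all 12 arrays. Myeloid markers ranged widely, from CD14 at 5.05 and 5.20 to LYZ at 13.24 and 13.73 in MV4-11 and U937 scrambled arrays. The myeloid mean thus rests in part on bright genes. Of 2 measured markers of MLL-rearranged leukaemia, MEIS1 rose by 0.69 in U937 (limma adjusted p = 0.014). FLT3 passed in neither line with CHD4 shRNA.

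When amino acids run short or the endoplasmic reticulum is stressed, kinases phosphorylate the initiation factor eIF2, general translation slows, and the ATF4 message is translated more. ATF4 then pairs with other basic leucine zipper proteins and binds C/EBP-ATF response elements near genes for amino acid uptake and synthesis, for tRNA charging and for stress adaptation. Control of ATF4 is largely translational, so a transcript level does not measure the ATF4 protein. Leukaemia cells depend on several of these supplies, and depletion of asparagine by asparaginase is a leukaemia treatment.

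With CHD4 shRNA a large share of the list was lower in both lines. In MV4-11, 17 of the 40 measured genes fell and 0 rose past the threshold of a limma adjusted p under 0.05, where 4.69% of all 11963 genes fell, 4.73% rose and 9.42% did either. In U937, 12 fell and 0 rose, where 3.69% of all genes fell, 2.67% rose and 6.36% did either. At an unadjusted p under 0.05 the number of genes that were higher was also 0 in each line. In either direction 26 of the 40 passed that level in MV4-11, beside 2933 of all 11963 genes. In U937 21 of the 40 did, beside 2278 of all genes. These all-gene counts were not split by direction. The median log2 change over the 40 genes was -0.36 in MV4-11 and -0.31 in U937, beside -0.03 and 0.00 over all genes in the same lines. A log2 change below 0 was found for 36 of 40 in MV4-11, where 55.2% of all genes were below 0, and for 33 of 40 in U937, where 50.5% were. The genes that fell in both lines were ATF4, ASNS, PSAT1, ALDH18A1, SLC7A11, SLC7A1, SLC1A4, EIF4EBP1, EPRS1, IARS1 and SARS1, which is 11 of 40, while 2.28% of all genes fell in both. The number that rose in both was 0, against 1.71% of all genes. As a group the listed genes were brighter than all genes of the array. Their median log2 level with scrambled shRNA was 10.25 in MV4-11 and 10.32 in U937, beside 7.5 and 7.51 over all genes. Without the dimmest 25% of genes, 18 of the list and 619 of all remaining genes fell in MV4-11, and 14 and 462 in U937. No share was computed among genes of like level, so the all-gene shares here and below are not matched for level. In such bulk samples fewer cells of a type and less RNA per cell cannot be told apart.

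The number of calls depended on single arrays, in the list and over all genes. In MV4-11 the 17 falls became 7 without CHD4 shRNA replicate 1, 10 when CHD4 shRNA replicate 2 was left out, and 11 and 10 in the absence of scrambled replicates 2 and 3. Over all 11963 genes the 561 falls of MV4-11 became 200, 308, 296 and 311 in these fits. In U937 the 12 falls became 2 and 3 without CHD4 shRNA replicates 2 and 3, and 3, 6 and 4 without scrambled replicates 1, 2 and 3. The 441 falls over all genes in U937 became 165, 202, 182, 249 and 211 in the same order. Over all fits that left out 1 array the median change stayed between -0.42 and -0.35 in MV4-11 and between -0.38 and -0.27 in U937. With the arrays of the same number treated as pairs in MV4-11, 23 genes of the list fell in that line. Falls over all genes then came to 929, against 561 without pairing. The sample titles give replicate numbers and do not state pairs, which were inferred from correlations between arrays of the same number.

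**Figure D1:**
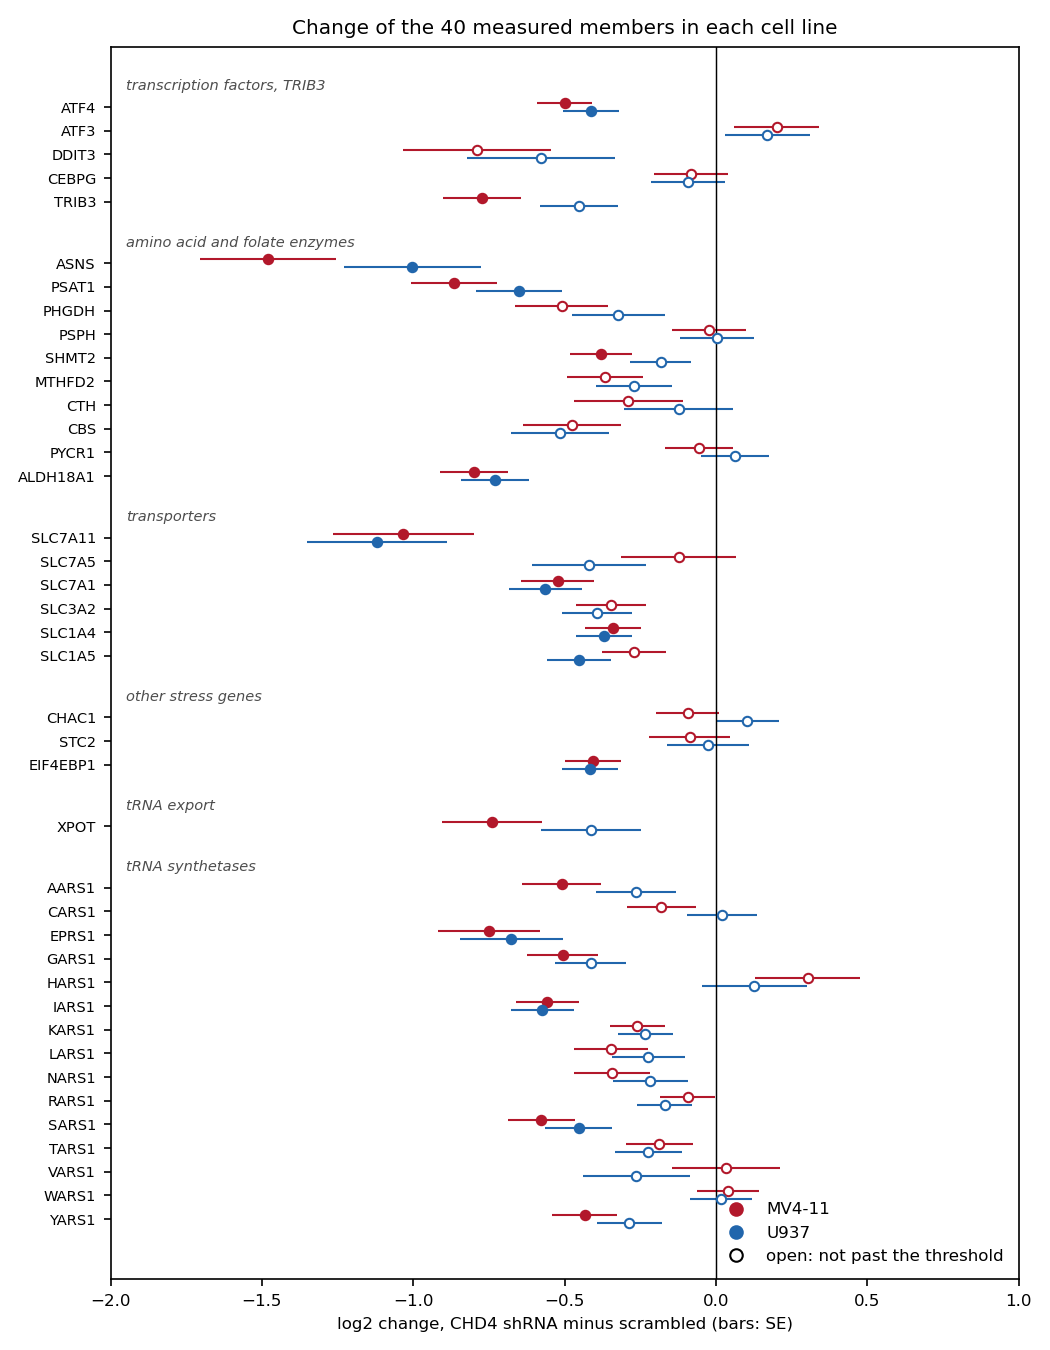
Log2 change with its SE for each of the 40 measured genes, in MV4-11 (red) and U937 (blue), grouped by role. Filled points are past the threshold, and all 17 in MV4-11 and 12 in U937 lie left of 0. ASNS and SLC7A11 reach beyond -1 in both lines.

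Promoters were examined because ATF4 acts through a short DNA element. RefSeq windows on GRCh38.p14, from 250 bases before to 50 bases after an annotated start, were found for 34 of the 42 genes, 53 windows in all, since several genes have more than 1 start and some windows overlap. The letters TGATGNAA, searched on both strands, are the core of the C/EBP-ATF response element. They occurred in 15 of the 53 windows (28.3%), against 3.62% of the 35116 windows of the whole table. The form TGATGCAA occurred in 10 of the 53, or 18.9%, against 0.866% of all windows. By gene, 15 of 34 held a match (44.1%), against 4.46% of the 27305 genes of the whole table. Matches were held by 7 of the 14 synthetases and 8 of the 20 others. Among genes that fell in at least 1 line 7 of 14 held a match, and among measured genes past the threshold in neither line 7 of 18 did. The genes were listed for their known link to ATF4, so the share is a description of that choice. A match is a run of letters and was not tested for binding.

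A match that lies wholly or partly before a start is shown for all 10 measured genes that have one, from 5′ to 3′ on the strand of the gene, with the matching letters in capitals (TTGCATCA is TGATGCAA read on the other strand). They are shown because the synthetases IARS1, AARS1 and CARS1 carry the same letters, yet their transcripts did not all pass the threshold.

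ASNS, chr7:97872449-97872496, minus strand: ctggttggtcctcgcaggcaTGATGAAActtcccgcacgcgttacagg
AARS1, chr16:70289666-70289713, minus strand: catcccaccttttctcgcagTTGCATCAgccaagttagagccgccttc
IARS1, chr9:92293688-92293730, minus strand: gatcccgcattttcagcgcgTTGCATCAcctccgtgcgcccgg
CARS1, chr11:3057414-3057445, minus strand: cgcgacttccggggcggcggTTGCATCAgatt
GARS1, chr7:30594825-30594872, plus strand: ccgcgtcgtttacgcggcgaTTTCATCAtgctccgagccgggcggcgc
CEBPG, chr19:33374051-33374098, plus strand: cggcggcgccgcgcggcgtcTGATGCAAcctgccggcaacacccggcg
SLC1A4, chr2:64989372-64989408, plus strand: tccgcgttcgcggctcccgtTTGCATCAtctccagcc
CHAC1, chr15:40953242-40953289, plus strand: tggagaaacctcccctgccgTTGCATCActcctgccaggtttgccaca
ATF3, chr1:212565196-212565243, plus strand: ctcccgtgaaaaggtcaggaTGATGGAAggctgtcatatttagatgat
SLC1A5, chr19:46784884-46784931, minus strand: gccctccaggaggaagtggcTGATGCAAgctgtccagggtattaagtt

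The ASNS match began 68 bases before the start, the CEBPG match 42 and the GARS1 match 33. The IARS1 match began 13 bases before the start, and that of CARS1 began 2 bases before it and ran into the transcript. Of these 10 genes ASNS, IARS1 and SLC1A4 fell in both lines, AARS1 and GARS1 in MV4-11, SLC1A5 in U937, and CARS1, CEBPG, CHAC1 and ATF3 in neither. For comparison, the 250 bases before the start are given for ASNS, which has a match, and for ALDH18A1, which fell in both lines and has none in its window.

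ASNS, chr7:97872409-97872658, minus strand: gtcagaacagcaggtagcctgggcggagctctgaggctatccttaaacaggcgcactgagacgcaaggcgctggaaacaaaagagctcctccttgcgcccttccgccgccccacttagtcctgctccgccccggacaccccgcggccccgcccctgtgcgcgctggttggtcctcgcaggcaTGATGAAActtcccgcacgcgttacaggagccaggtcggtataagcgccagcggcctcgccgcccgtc
ALDH18A1, chr10:95656712-95656961, minus strand: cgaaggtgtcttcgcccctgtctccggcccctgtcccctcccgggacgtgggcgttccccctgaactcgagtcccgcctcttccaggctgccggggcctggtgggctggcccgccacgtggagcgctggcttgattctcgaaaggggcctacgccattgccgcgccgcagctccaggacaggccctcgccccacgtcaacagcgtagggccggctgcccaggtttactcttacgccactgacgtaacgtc

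Among the regulators, ATF4 itself fell in both lines, and its target TRIB3 fell in MV4-11. In MV4-11 ATF4 had log2 values of 12.15, 12.10 and 12.29 with CHD4 shRNA, against 12.64, 12.67 and 12.73 with scrambled shRNA. In U937 it had 12.27, 12.16 and 12.06 with CHD4 shRNA, against 12.53, 12.52 and 12.68 with scrambled shRNA. Every CHD4 shRNA array lay below every scrambled array of its line. The changes were -0.50 (SE 0.09, limma adjusted p = 0.0062), or 1.41-fold lower, in MV4-11 and -0.41 (SE 0.09, limma adjusted p = 0.019), or 1.33-fold lower, in U937. The U937 call was lost without scrambled replicate 1 or 3 or CHD4 shRNA replicate 2 or 3 (limma adjusted p between 0.053 and 0.078).

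TRIB3, a pseudokinase that ATF4 induces and that in turn restrains ATF4, had 9.63, 9.73 and 9.94 with CHD4 shRNA, against 10.38, 10.52 and 10.72 with scrambled shRNA, in MV4-11. This was a change of -0.77 (SE 0.13, limma adjusted p = 0.0038). In U937 TRIB3 had 10.11, 9.90 and 9.71 with CHD4 shRNA, against 10.46, 10.40 and 10.22 with scrambled shRNA. The groups did not overlap there either, and the change of -0.45 had an adjusted p of 0.059 in limma. It passed when U937 CHD4 shRNA replicate 1 (0.035) or MV4-11 CHD4 shRNA replicate 3 (0.043) was left out, and with MV4-11 arrays as pairs (0.025). Fits that pair or leave out MV4-11 arrays keep the U937 change as it is. They alter its p-value through a spread estimated from the arrays of both lines. The same holds below wherever arrays of 1 line change a call in the other.

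DDIT3 encodes CHOP, a stress factor that works with ATF4. It had 8.60, 8.63 and 9.09 with CHD4 shRNA, against 9.18, 9.37 and 10.14 with scrambled shRNA, in MV4-11. The scrambled arrays were spread over almost a log2 unit, and the change of -0.79 (SE 0.24) had a limma adjusted p of 0.062. Treated as pairs, the MV4-11 arrays gave DDIT3 a limma adjusted p of 0.012, and the call was also made when MV4-11 scrambled replicate 1 (0.043), MV4-11 CHD4 shRNA replicate 3 (0.026) or U937 scrambled replicate 3 (0.049) was left out. In U937 DDIT3 had 8.90, 8.70 and 8.50 with CHD4 shRNA, against 9.45, 9.54 and 8.84 with scrambled shRNA, and the groups overlapped (change -0.58, limma adjusted p = 0.21). With a replicate block for each line separately the U937 fall of DDIT3 passed (limma adjusted p = 0.017). Deviations of same-numbered U937 arrays correlated at 0.00, 0.35 and 0.34, so whether those arrays are pairs is unclear. CEBPG, a dimer partner of ATF4, had changes of -0.08 and -0.09 in MV4-11 and U937. ATF3, a stress-induced repressor of the same family, had changes of 0.20 and 0.17, with limma adjusted p of 0.43 and 0.59. ATF3 was dim on these arrays, with group means between 6.34 and 6.78.

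Of the 10 enzymes of amino acid and folate metabolism, 4 fell in MV4-11 and 3 in U937, and 0 rose. Among all genes 4.69% fell and 4.73% rose in MV4-11, and 3.69% fell and 2.67% rose in U937. ASNS, which makes asparagine from aspartate and glutamine, moved most. In MV4-11 it had 8.30, 8.05 and 8.58 with CHD4 shRNA, against 9.76, 9.86 and 9.75 with scrambled shRNA. In U937 it had 8.97, 8.61 and 7.81 with CHD4 shRNA, against 9.56, 9.41 and 9.43 with scrambled shRNA. All CHD4 shRNA arrays were lower, and in U937 they differed among themselves more than for any other gene of the list (SD 0.59). ASNS was 2.79-fold lower in MV4-11 (log2 change -1.48, SE 0.23, limma adjusted p = 0.0026) and 2.00-fold lower in U937 (log2 change -1.0, SE 0.23, limma adjusted p = 0.020). In MV4-11 its change ranked 13 from the lowest among the 11963 genes, and in U937 it ranked 53. The U937 call was lost without any 1 of the 3 scrambled arrays or without CHD4 shRNA replicate 2 (limma adjusted p between 0.053 and 0.083).

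Serine is made from a glycolytic intermediate by PHGDH, PSAT1 and PSPH in turn. PSAT1, the middle enzyme, had 8.78, 8.55 and 9.02 with CHD4 shRNA, against 9.76, 9.65 and 9.54 with scrambled shRNA, in MV4-11. In U937 PSAT1 had 9.39, 9.05 and 8.87 with CHD4 shRNA, against 9.74, 9.69 and 9.83 with scrambled shRNA. No array crossed to the other group, and the changes were -0.87 (SE 0.14, limma adjusted p = 0.0034) in MV4-11 and -0.65 (SE 0.14, limma adjusted p = 0.017) in U937. The U937 call was lost without scrambled replicate 1 or 3 or CHD4 shRNA replicate 2 or 3 (limma adjusted p between 0.062 and 0.076). PHGDH, the entry enzyme, had changes of -0.51 (SE 0.15) in MV4-11 and -0.32 (SE 0.15) in U937, with limma adjusted p of 0.056 and 0.28. With MV4-11 arrays as pairs PHGDH passed there (0.030), as it did without CHD4 shRNA replicate 3 (0.0032). PSPH, the last enzyme, had changes of -0.02 and 0.00 in MV4-11 and U937. Its second probe set had changes of 0.45 and 0.30, neither past the threshold, so the probe sets of PSPH disagree. The 3 steps of serine synthesis were thus read with unequal changes.

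Downstream of serine, SHMT2 turns serine into glycine in mitochondria and MTHFD2 handles the folate unit it releases. SHMT2 had 11.31, 11.26 and 11.39 with CHD4 shRNA, against 11.75, 11.84 and 11.51 with scrambled shRNA, in MV4-11, where it fell by 0.38 on the log2 scale (SE 0.10, limma adjusted p = 0.035). In U937 SHMT2 had 11.61, 11.47 and 11.40 with CHD4 shRNA, against 11.67, 11.61 and 11.75 with scrambled shRNA, groups that touched (change -0.18, limma adjusted p = 0.37). The MV4-11 call of SHMT2 was lost without any 1 of 6 arrays, which were MV4-11 CHD4 shRNA replicates 1 and 2, MV4-11 scrambled replicates 1 and 2, U937 CHD4 shRNA replicate 2 and U937 scrambled replicate 1 (limma adjusted p between 0.050 and 0.13), and with 1 replicate block common to both lines (0.052). MTHFD2 had changes of -0.37 (SE 0.13) in MV4-11 and -0.27 (SE 0.13) in U937, with limma adjusted p of 0.087 and 0.27. As pairs the MV4-11 arrays gave MTHFD2 a limma adjusted p of 0.025, and without CHD4 shRNA replicate 3 it was 0.033.

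ALDH18A1, which starts proline synthesis from glutamate, fell in both lines, with little spread among the scrambled arrays. It had 9.12, 9.08 and 9.40 with CHD4 shRNA, against 9.97, 9.99 and 10.04 with scrambled shRNA, in MV4-11. In U937 it had 9.87, 9.63 and 9.49 with CHD4 shRNA, against 10.45, 10.37 and 10.36 with scrambled shRNA. The gap between the groups exceeded the spread within each, and the changes were -0.80 (SE 0.11, limma adjusted p = 0.0016) in MV4-11 and -0.73 (SE 0.11, limma adjusted p = 0.0030) in U937. ALDH18A1 passed in all 22 other fits in each line. PYCR1, which completes proline synthesis in mitochondria, had changes of -0.06 and 0.06 in MV4-11 and U937. CBS and CTH, which turn homocysteine into cysteine, had no call. CBS had changes of -0.48 (SE 0.16) and -0.52 (SE 0.16) in MV4-11 and U937, with limma adjusted p of 0.085 and 0.084, and with MV4-11 arrays as pairs 0.044 in each line. Without MV4-11 CHD4 shRNA replicate 2, CBS passed in U937 (0.026). RefSeq holds a second gene under the names CBS and CBSL, and whether the probe set separates these copies was not tested.

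Of the 6 amino acid transporters 3 fell in MV4-11 and 4 in U937, 0 rose, and all 6 had changes below 0 in both lines. Over all genes in MV4-11, 4.69% fell, 4.73% rose and 55.2% had changes below 0. The same shares in U937 were 3.69%, 2.67% and 50.5%. SLC7A11 imports cystine in exchange for glutamate and so supplies cysteine for glutathione. It had 7.30, 7.43 and 7.90 with CHD4 shRNA, against 8.67, 8.29 and 8.77 with scrambled shRNA, in MV4-11. In U937 SLC7A11 had 8.21, 7.5 and 7.16 with CHD4 shRNA, against 8.68, 8.88 and 8.67 with scrambled shRNA. It was 2.05-fold lower in MV4-11 (log2 change -1.03, SE 0.23, limma adjusted p = 0.016) and 2.17-fold lower in U937 (log2 change -1.12, SE 0.23, limma adjusted p = 0.014), and no array crossed to the other group. Its other 2 probe sets had changes of -0.77 and -0.49 in MV4-11 and -0.98 and -0.32 in U937. The call was lost in MV4-11 without CHD4 shRNA replicate 1 or 2 or scrambled replicate 1 or 3 (limma adjusted p between 0.051 and 0.080), and in U937 without CHD4 shRNA replicate 2 or 3 or scrambled replicate 2 (between 0.058 and 0.064).

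SLC7A1, the carrier of arginine and lysine, had 10.43, 10.66 and 10.26 with CHD4 shRNA, against 10.96, 11.14 and 10.82 with scrambled shRNA, in MV4-11. In U937 it had 10.57, 10.34 and 10.31 with CHD4 shRNA, against 11.01, 10.89 and 11.01 with scrambled shRNA. The fall of SLC7A1 was -0.52 (SE 0.12, limma adjusted p = 0.019) in MV4-11 and -0.56 (SE 0.12, limma adjusted p = 0.016) in U937. The call was lost in MV4-11 without CHD4 shRNA replicate 1 or scrambled replicate 2 (limma adjusted p of 0.074 and 0.073), and in U937 without CHD4 shRNA replicate 2 or 3 or scrambled replicate 1 or 3 (between 0.061 and 0.074). Averaging its 5 probe sets gave changes of -0.31 in MV4-11 and -0.24 in U937, and only that in MV4-11 passed (limma adjusted p of 0.035 and 0.11), and 1 of the dimmer probe sets had a change of 0.16 in U937.

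SLC1A4, a carrier of small neutral amino acids, had 9.87, 10.10 and 9.96 with CHD4 shRNA, against 10.33, 10.37 and 10.25 with scrambled shRNA, in MV4-11. In U937 SLC1A4 had 10.14, 9.94 and 10.17 with CHD4 shRNA, against 10.50, 10.41 and 10.45 with scrambled shRNA. The groups were apart in each line, but the changes were small at -0.34 (SE 0.09, limma adjusted p = 0.039) in MV4-11 and -0.37 (SE 0.09, limma adjusted p = 0.036) in U937. SLC1A4 had the least stable calls, lost in 9 of 12 fits without 1 array in MV4-11 (every array but U937 CHD4 shRNA replicates 2 and 3 and MV4-11 CHD4 shRNA replicate 2, limma adjusted p up to 0.17) and in 6 of 12 in U937 (each U937 array, up to 0.15). With 1 replicate block common to both lines they were lost as well (0.062 in MV4-11 and 0.060 in U937).

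SLC1A5 brings in glutamine. It had 8.96, 8.79 and 8.65 with CHD4 shRNA, against 9.36, 9.29 and 9.11 with scrambled shRNA, in U937, and fell by 0.45 on the log2 scale (SE 0.11, limma adjusted p = 0.025). In MV4-11 it had 8.94, 9.12 and 8.91 with CHD4 shRNA, against 9.34, 9.22 and 9.22 with scrambled shRNA, also without overlap, but the change of -0.27 had a limma adjusted p of 0.13. The U937 call of SLC1A5 was lost without scrambled replicate 1 or 2 or CHD4 shRNA replicate 2 or 3 (limma adjusted p between 0.084 and 0.11). SLC3A2 is the shared heavy chain of SLC7A11 and SLC7A5, and it had changes of -0.35 (SE 0.11) and -0.39 (SE 0.11) in MV4-11 and U937, with limma adjusted p of 0.077 and 0.064. With MV4-11 arrays as pairs SLC3A2 passed in both (0.048 and 0.040). It also passed in MV4-11 without MV4-11 scrambled replicate 1 (0.0499) and in U937 without MV4-11 CHD4 shRNA replicate 2 (0.049). SLC7A5, the leucine carrier, had changes of -0.12 in MV4-11 and -0.42 in U937 (SE 0.19 each, limma adjusted p of 0.76 and 0.25). The U937 fall passed with MV4-11 arrays as pairs (limma adjusted p = 0.034), a fit that leaves the U937 change as it is.

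**Figure D2:**
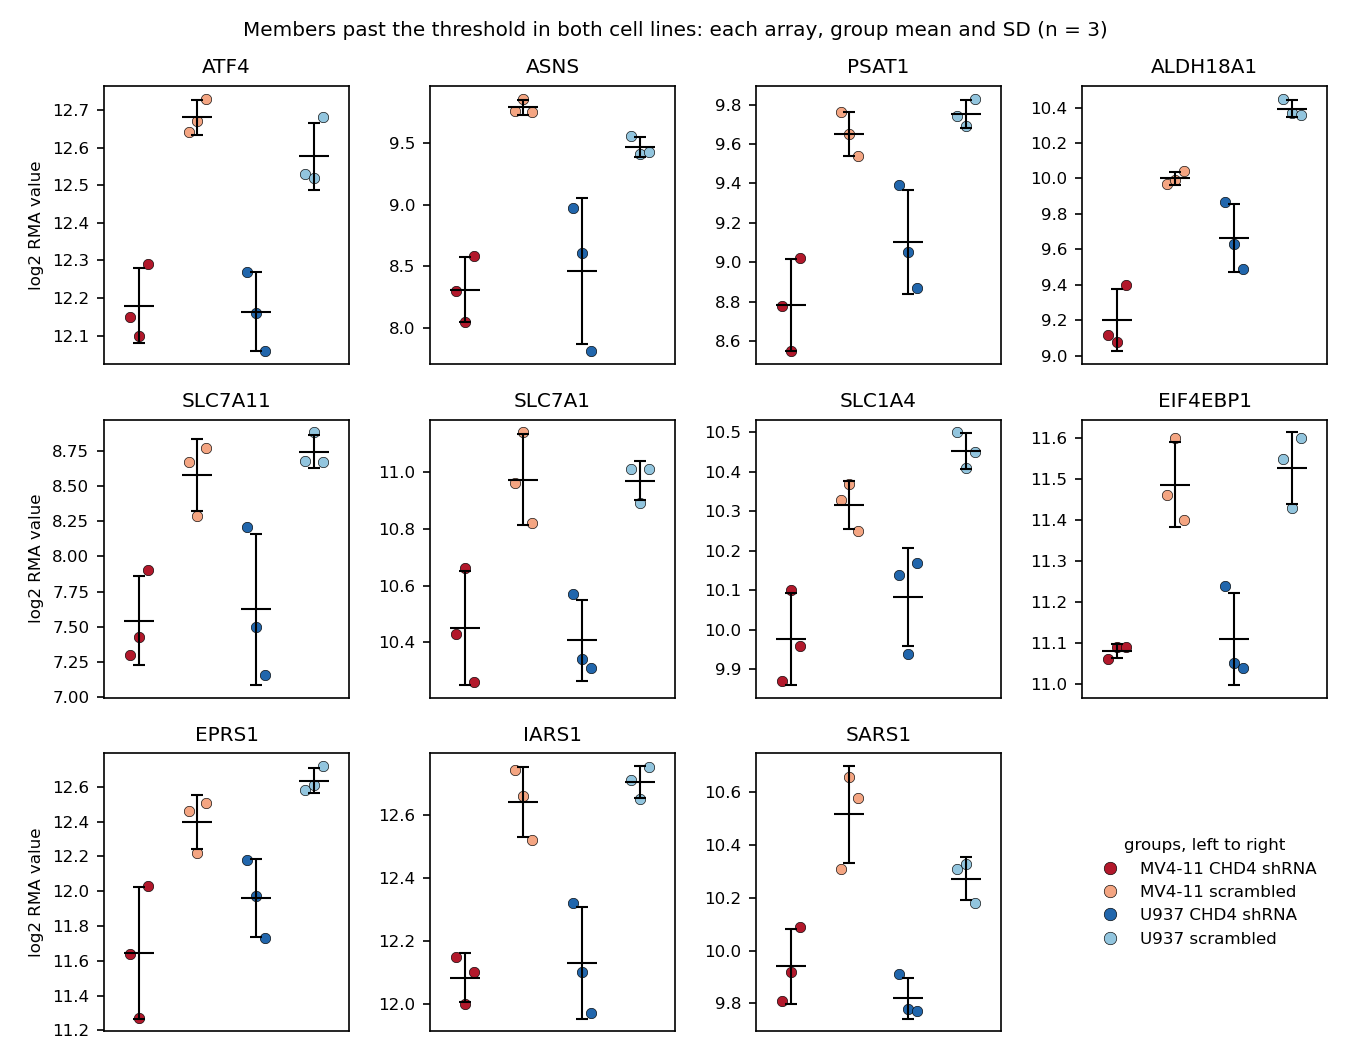
Log2 RMA values of the 11 genes past the threshold in both lines. Points are arrays in replicate order, bars are the mean and SD of 3 arrays, and groups run from left to right as MV4-11 CHD4 shRNA, MV4-11 scrambled, U937 CHD4 shRNA and U937 scrambled. For each of these genes all 3 CHD4 shRNA arrays lie below all 3 scrambled arrays of the same line.

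Of 3 further stress genes 1 had a call, where 9.42% of all genes did in MV4-11 and 6.36% in U937. This was EIF4EBP1, which binds the cap-binding factor eIF4E and holds back translation. It had 11.06, 11.09 and 11.09 with CHD4 shRNA, against 11.46, 11.60 and 11.40 with scrambled shRNA, in MV4-11. In U937 EIF4EBP1 had 11.24, 11.05 and 11.04 with CHD4 shRNA, against 11.55, 11.43 and 11.60 with scrambled shRNA. The fall was alike in size at -0.41 (SE 0.09, limma adjusted p = 0.017) in MV4-11 and -0.42 (SE 0.09, limma adjusted p = 0.018) in U937. The EIF4EBP1 call was lost in MV4-11 without CHD4 shRNA replicate 1 or scrambled replicate 2 (0.070 and 0.067), and in U937 without CHD4 shRNA replicate 2 or 3 or scrambled replicate 1 or 3 (limma adjusted p between 0.071 and 0.083). CHAC1, which degrades glutathione, had 6.33, 6.34 and 6.42 with CHD4 shRNA, against 6.39, 6.49 and 6.49 with scrambled shRNA, in MV4-11. In U937 CHAC1 had 7.01, 6.90 and 6.76 with CHD4 shRNA, against 6.83, 6.94 and 6.59 with scrambled shRNA, so its groups overlapped in both lines. STC2, a secreted glycoprotein of the stress response, had 5.85, 5.61 and 5.70 with CHD4 shRNA, against 6.10, 5.69 and 5.63 with scrambled shRNA, in MV4-11. In U937 STC2 had 5.78, 6.08 and 5.86 with CHD4 shRNA, against 5.87, 6.09 and 5.84 with scrambled shRNA. CHAC1 and STC2 were dimmer than the median gene of these arrays, which stood near 7.5, and background signal compresses changes of dim genes.

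Cytosolic tRNA synthetases attach amino acids to their tRNAs. Of the 15 measured, 6 fell in MV4-11 and 3 in U937, and 0 rose, with median changes of -0.34 and -0.23. The shares of all genes were 4.69% lower and 4.73% higher in MV4-11, and 3.69% and 2.67% in U937. EPRS1, IARS1 and SARS1, for glutamate with proline, isoleucine and serine, fell in both lines. IARS1 had 12.15, 12 and 12.10 with CHD4 shRNA, against 12.74, 12.66 and 12.52 with scrambled shRNA, in MV4-11. In U937 IARS1 had 12.32, 12.10 and 11.97 with CHD4 shRNA, against 12.71, 12.65 and 12.75 with scrambled shRNA. Its changes were nearly the same, -0.56 (SE 0.10, limma adjusted p = 0.0064) in MV4-11 and -0.57 (SE 0.10, limma adjusted p = 0.0068) in U937, and IARS1 passed in all 22 other fits in each line. Together with ALDH18A1 it was the only gene of the list to do so in both.

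EPRS1 had 11.64, 11.27 and 12.03 with CHD4 shRNA, against 12.46, 12.22 and 12.51 with scrambled shRNA, in MV4-11. In U937 EPRS1 had 12.18, 11.97 and 11.73 with CHD4 shRNA, against 12.58, 12.61 and 12.72 with scrambled shRNA. Its CHD4 shRNA arrays were widely spread in MV4-11, yet all lay below the controls, and it was 1.68-fold lower there (log2 change -0.75, SE 0.17, limma adjusted p = 0.017) and 1.60-fold lower in U937 (log2 change -0.68, SE 0.17, limma adjusted p = 0.035). Both other EPRS1 probe sets fell too, by changes of -0.91 and -0.93 in MV4-11 and -0.75 and -0.88 in U937. The EPRS1 call was lost in MV4-11 without CHD4 shRNA replicate 1 or 2 or scrambled replicate 1 or 3 (limma adjusted p between 0.053 and 0.066), and in U937 without any 1 U937 array except CHD4 shRNA replicate 1 or without MV4-11 CHD4 shRNA replicate 1 (between 0.052 and 0.13).

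SARS1 had 9.81, 9.92 and 10.09 with CHD4 shRNA, against 10.31, 10.66 and 10.58 with scrambled shRNA, in MV4-11. In U937 SARS1 had 9.91, 9.78 and 9.77 with CHD4 shRNA, against 10.31, 10.33 and 10.18 with scrambled shRNA. It was lower by changes of -0.58 (SE 0.11, limma adjusted p = 0.0073) in MV4-11, a call kept in all 22 other fits, and -0.45 (SE 0.11, limma adjusted p = 0.030) in U937, lost without any 1 U937 array except CHD4 shRNA replicate 1 (limma adjusted p between 0.052 and 0.11).

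AARS1, GARS1 and YARS1, for alanine, glycine and tyrosine, and the exporter XPOT passed in MV4-11. AARS1 had 9.94, 9.65 and 10.21 with CHD4 shRNA, against 10.31, 10.57 and 10.45 with scrambled shRNA, in MV4-11 (change -0.51, SE 0.13, limma adjusted p = 0.030). In U937 AARS1 had 10.26, 10.11 and 9.98 with CHD4 shRNA, against 10.40, 10.37 and 10.37 with scrambled shRNA (change -0.26, limma adjusted p = 0.31). GARS1, which also serves mitochondria, had 12.17, 11.98 and 12.34 with CHD4 shRNA, against 12.63, 12.64 and 12.74 with scrambled shRNA, in MV4-11 (change -0.51, SE 0.12, limma adjusted p = 0.019). In U937 GARS1 had 12.59, 12.46 and 12.18 with CHD4 shRNA, against 12.78, 12.86 and 12.83 with scrambled shRNA (change -0.41, limma adjusted p = 0.058). Arrays of AARS1 and GARS1 did not overlap between groups in either line. Without MV4-11 CHD4 shRNA replicate 1 or 2 or scrambled replicate 3 the MV4-11 calls of AARS1 and GARS1 were lost, and that of AARS1 also without scrambled replicate 2 (limma adjusted p between 0.083 and 0.11 for AARS1, and 0.068 and 0.071 for GARS1). GARS1 passed in U937 without U937 CHD4 shRNA replicate 1 (0.036) and without MV4-11 CHD4 shRNA replicate 2 (0.039) or 3 (0.039), and with MV4-11 arrays as pairs (0.036).

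YARS1 had 11.44, 11.44 and 11.70 with CHD4 shRNA, against 11.93, 11.98 and 11.97 with scrambled shRNA, in MV4-11 (change -0.43, SE 0.11, limma adjusted p = 0.025). In U937 YARS1 had 11.71, 11.56 and 11.35 with CHD4 shRNA, against 11.76, 11.83 and 11.89 with scrambled shRNA (change -0.29, limma adjusted p = 0.15). XPOT, which carries tRNAs out of the nucleus, had 11.33, 11.11 and 11.76 with CHD4 shRNA, against 11.99, 12.07 and 12.36 with scrambled shRNA, in MV4-11 (change -0.74, SE 0.16, limma adjusted p = 0.016). In U937 XPOT had 11.64, 11.35 and 11.32 with CHD4 shRNA, against 11.77, 11.73 and 12.05 with scrambled shRNA (change -0.41, limma adjusted p = 0.18). Both genes were separated between groups in both lines, by 0.05 in U937 for YARS1. The MV4-11 call of YARS1 was lost without any 1 MV4-11 array except CHD4 shRNA replicate 3 (limma adjusted p between 0.055 and 0.11), and that of XPOT without CHD4 shRNA replicate 1 or 2 or scrambled replicate 3 (between 0.056 and 0.069).

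The other 9 measured synthetases had no call, with changes from -0.35 (LARS1) to 0.30 (HARS1) in MV4-11. NARS1, for asparagine, had a change of -0.34 (SE 0.12, limma adjusted p = 0.10) in MV4-11, which passed with MV4-11 arrays as pairs (0.036) and without CHD4 shRNA replicate 3 (0.043). KARS1, for lysine, had -0.26 (SE 0.09, limma adjusted p = 0.095) in MV4-11, and passed with a replicate block for each line separately (0.047). HARS1, for histidine, was the synthetase with the highest change, 0.30 in MV4-11 and 0.13 in U937 (SE 0.17 each). It passed upward in MV4-11 without CHD4 shRNA replicate 3 (limma adjusted p = 0.023). WARS1 and CARS1, for tryptophan and cysteine, had changes of 0.04 and -0.18 in MV4-11 and of 0.02 and 0.02 in U937. LARS1 was read by a probe set whose probes may cross-hybridise with other transcripts.

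By overlap of arrays, which needs no model, 26 of the 40 genes had all 3 CHD4 shRNA arrays below all 3 scrambled arrays in MV4-11, and 23 did in U937. Over all genes the shares were 14.1% and 14.6%. In the opposite direction there were 0 such genes in MV4-11, against 11.5% of all genes, and 1 in U937, HARS1, against 12.2%.

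The arrays of a group were not equally far from the controls. Taking each array's difference from the scrambled mean of its line, the median over the 40 genes was -0.40, -0.42 and -0.30 in MV4-11 CHD4 shRNA replicates 1, 2 and 3, against -0.03, 0.02 and 0.01 in the scrambled arrays. In U937 it was -0.21, -0.39 and -0.43 with CHD4 shRNA, against 0.02, -0.04 and 0.02 with scrambled shRNA. Replicate 3 of the U937 CHD4 shRNA group held the lowest value of its group for 29 of the 40 genes, and replicate 1 for 2. In MV4-11 the lowest value was spread over replicates 1, 2 and 3 as 12, 18 and 10 genes. Without U937 CHD4 shRNA replicate 3 the median change in U937 was -0.29. The actin control probe sets, whose 3′ minus 5′ log2 signal rises as RNA degrades, gave 1.21 to 1.45 with CHD4 shRNA and 1.13 to 1.5 with scrambled shRNA in MV4-11. In U937 they gave 1.25 to 1.45 with CHD4 shRNA and 1.25 to 1.35 with scrambled shRNA.

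**Figure D3:**
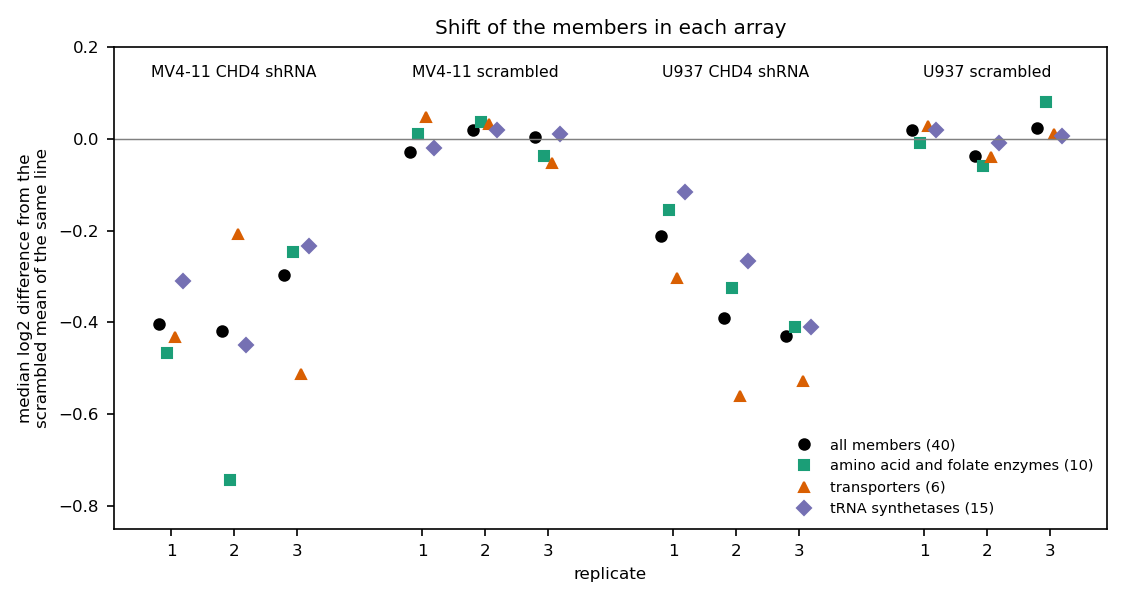
Median log2 difference from the scrambled mean of the same line, for each array, over all 40 genes and over 3 of the role groups. All CHD4 shRNA arrays lie below -0.1 in each of the 4 sets, and the scrambled arrays lie between -0.1 and 0.1.

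Whether the lines responded differently was tested as the MV4-11 change minus the U937 change. Of the 40 genes 0 passed, and 0 had an unadjusted p under 0.05. Over all 11963 genes 0% passed by limma, and 546 had an unadjusted p under 0.05. The differences ran from -0.48 for ASNS (SE 0.32) to 0.30 for SLC7A5 (SE 0.27) and VARS1 (SE 0.25), each with a limma adjusted p of 0.94. Calls made in 1 line only, such as those of TRIB3, XPOT and AARS1 in MV4-11 or SLC1A5 in U937, are therefore not shown to differ between the lines. The enzyme group had differences below 0 for 9 of 10 genes and the transporter group for 0 of 6, and neither pattern was tested. Over the 40 genes 24 differences were below 0, beside 51.9% of all genes.

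**Figure D4:**
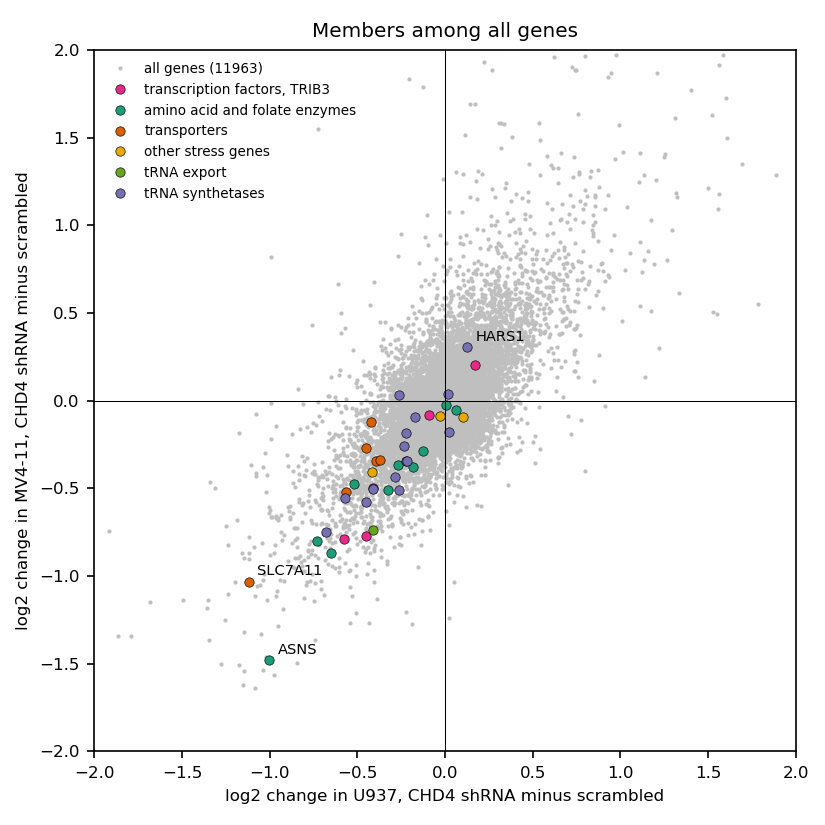
Log2 change in U937 (x axis) against log2 change in MV4-11 (y axis) for all 11963 genes (grey) and the 40 genes by role. Most of the 40 lie in the lower left with ASNS and SLC7A11 farthest out, and HARS1 is the highest in MV4-11. Axes are limited to 2 in each direction, which leaves 38 genes out of view.

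Between the scrambled controls, MV4-11 minus U937, the list had calls at about the rate of all genes. Here 1 of the 40 genes was lower and 0 were higher, where 2.51% and 2.97% of all genes were and 5.48% were either. Differences below 0 were found for 19 of 40, against 56.9% of all genes. All MV4-11 scrambled arrays lay below all U937 scrambled arrays for 11 of 40 genes, against 14.4% of all genes, and above them for 2, against 11.9%. At an unadjusted p under 0.05 there were 7 of 40, beside 2399 of all 11963 genes. The gene past the threshold was CTH, which makes cysteine from cystathionine. It had 8.93, 8.74 and 8.41 in MV4-11, against 9.58, 9.61 and 9.72 in U937 (log2 difference -0.94, SE 0.18, limma adjusted p = 0.0084). With CHD4 shRNA CTH had 8.39, 8.05 and 8.77 in MV4-11 and 9.77, 9.44 and 9.33 in U937, so the arrays of the lines stayed apart. ALDH18A1 differed by -0.39 (SE 0.11) between the scrambled controls with a limma adjusted p of 0.063, and CHAC1 by -0.33 (SE 0.10) with 0.089. ATF4 and ASNS differed by 0.10 and 0.32, with limma adjusted p of 0.58 and 0.47.

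The neighbouring parts of the pathway were covered by 5 further lists, of which 53 genes were measured. Of these, 12 fell and 1 rose in MV4-11, and 10 fell and 0 rose in U937. Over all genes 4.69% fell and 4.73% rose in MV4-11, and 3.69% fell and 2.67% rose in U937. Among 18 measured ATF4 targets outside the main list, 6 fell and 1 rose in MV4-11, and 6 fell in U937. DDIT4, an inhibitor of mTORC1 signalling, had changes of -0.95 and -0.85 in MV4-11 and U937, and the ER protein degradation gene HERPUD1 -0.82 and -0.77. VEGFA, the endothelial growth factor, had -0.71 and -0.57, the mitochondrial protease LONP1 -0.52 and -0.53, and the glutamine carrier SLC38A2 -0.49 and -0.44. SLC43A1, a carrier of large neutral amino acids, fell by 0.44 on the log2 scale in MV4-11, and the growth arrest gene GADD45A fell by 0.70 in U937. ATF5, another bZIP factor, rose by 0.76 in MV4-11 (SE 0.13, limma adjusted p = 0.0038). Several of these genes also answer to hypoxia, p53 or ER stress, as general background. Single arrays were not left out in turn for these lists.

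The eIF2 kinases, the eIF2 subunits and their regulators, 14 measured, had 1 fall in MV4-11, EIF2B2 at -0.49 (SE 0.09, limma adjusted p = 0.0071), a subunit of the exchange factor that recharges eIF2. In U937 limma called 0 of the 14. At an unadjusted p under 0.05 there were 7 of 14 in MV4-11, beside 2933 of all 11963 genes, and 5 of 14 in U937, beside 2278. The 1 call of 14 is near the share of all genes that fell in MV4-11, 4.69%. Of 10 measured mitochondrial tRNA synthetases 4 fell in MV4-11 and 3 in U937, where 4.69% and 3.69% of all genes fell. FARS2, LARS2 and WARS2 fell in both lines, with changes of -0.51, -0.45 and -0.42 in MV4-11 and -0.50, -0.44 and -0.45 in U937, and IARS2 fell by 0.48 on the log2 scale in MV4-11. AIMP1, a scaffold of the multi-synthetase complex, fell by 0.60 in MV4-11 (limma adjusted p = 0.022). It was 1 of 2 measured genes in a list of other cytosolic synthetases and the complex scaffold. The other had a change of 0.22 in MV4-11. In U937 neither passed, with changes from -0.38 to -0.32. The shares of all genes that fell were 4.69% in MV4-11 and 3.69% in U937. Of 9 measured enzymes of serine, glycine, folate and proline metabolism outside the main list, MTHFD1 was the only call, at -0.45 in U937 (limma adjusted p = 0.044). That is 1 call of 9, beside the 3.69% of all genes that fell in U937.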

How the data were processed

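RNA from 12 cultures of 2 cell lines was hybridised as biotinylated cRNA to Affymetrix arrays, per the labels' protocols. The authors deposited log2 values. The submitters' processing notes name RMA, without a version. RMA corrects background, quantile normalizes arrays and summarises probes, so a common shift of most genes would be removed. Values ran from 2.54 to 15.11 with array medians of 6.97 to 7.02. The number of arrays limits the precision, and no detection calls were used.

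Of 22277 probe sets, 62 controls, 1043 with several symbols and 2108 unnamed ones were left out, and 19064 with 1 symbol gave 11963 genes. The Entrez identifiers of 19052 matched the RefSeq gene table. One linear model with 4 group means was fitted to all 12 arrays with limma 3.58.1 in R 4.3.3 (lmFit, eBayes, 8 residual and 4.66 prior degrees of freedom). Benjamini-Hochberg adjustment was over all 11963 genes, with a threshold of 0.05. The fit was tried on simulated data in which arrays varied independently. That trial did not include the correlations between same-numbered arrays given below. The triplicates are biological per the series description, and p-values measure the spread between arrays only.

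The members and lists were chosen with earlier results of these data known. Arrays are given singly for genes past the threshold in at least 1 line and for the 3 genes per role with the lowest p in either line, and for CTH, chosen after its values were seen. Replicate numbers come from the titles. Deviations from the group means of same-numbered CHD4 shRNA and scrambled arrays correlated at 0.46, 0.48 and 0.49 across genes in MV4-11, which were taken as pairs, and at 0.00, 0.35 and 0.34 in U937, which were not. Pairs were fitted as a replicate block in MV4-11. Alternatives were other normalizations, filters, probe set rules, variance models, thresholds, blocks, only the compared groups, and leaving out each array; 22 kept the threshold of 0.05.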

Additional observations from a re-analysis of the deposited data

How the results depend on the processing

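CHD4 stayed past the threshold in every fit of both lines, with log2 changes from -2.08 to -1.85 in MV4-11 and from -2.29 to -2.08 in U937 when 1 array was left out. The count of genes of the list that fell in MV4-11 was 17. It was 8 when the fit held MV4-11 arrays alone, 7 at an adjusted p under 0.01 (24 at 0.1), and 7 to 20 without 1 array. Falls over all genes, 561 in the main fit, were 245, 176 (908 at 0.1) and 200 to 949 in the same order. The count of the list that rose was 0, or 0 to 1 without 1 array. Over all genes 566 rose, or 222 to 1015 without 1 array. In U937 the count of the list that fell was 12, 2 at an adjusted p under 0.01 and 2 to 15 without 1 array. Over all genes the 441 falls of U937 became 143 and 165 to 551. Between the scrambled controls 1 gene of the list was lower, 2 with only these groups in the fit, 3 at an adjusted p under 0.1 and 1 to 2 without 1 array. Over all genes the 300 that were lower became 405, 523 and 147 to 399 in the same order. Fewer samples or a stricter threshold are part of how these alternatives were built. With the replicate block in MV4-11 alone 23 fell in MV4-11 and 17 in U937; a replicate block for each line separately gave 24 and 18, and 1 replicate block common to both gave 15 and 11. Falls over all 11963 genes were 929 in MV4-11 and 679 in U937 under the first of these fits, 1106 and 817 under the next, and 538 and 378 under the last, against 561 and 441 without a block. The difference between the lines gave 0 calls in the list under each alternative run.

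Changes reversed sign only for genes with no call. Averaging the probe sets gave 0.22 for PSPH in MV4-11, and 0.02 for STC2 and -0.0217 for WARS1 in U937. Without 1 array the changes in MV4-11 ran from -0.0583 to 0.0467 for PSPH, -0.11 to 0.01 for PYCR1, -0.33 to 0.11 for SLC7A5, -0.17 to 0.06 for STC2, -0.14 to 0.15 for VARS1 and -0.045 to 0.10 for WARS1. In U937 they ran from -0.20 to 0.0117 for CEBPG, -0.12 to 0.15 for PSPH, -0.0217 to 0.15 for PYCR1, -0.11 to 0.0517 for STC2, -0.0583 to 0.11 for CARS1 and -0.0383 to 0.085 for WARS1. Their cause was not tested. Dim genes such as CHAC1, STC2 and ATF3 limit what these arrays can show.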
